A study of Mus musculus with 32 samples.

Results

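This comparison sets 3 GABAergic populations of the mouse cortex, PV, SST and VIP, against 2 glutamatergic ones, CamK and Scnn. It uses 20 of the 32 libraries of the series, 12 on the GABAergic and 8 on the glutamatergic side, chosen by the population named in the title and by the labelled tissue. Each population has 4 libraries of ribosome-associated RNA, and every library is labelled WT with no treatment. The remaining 12 libraries come from the hippocampus (CamK, Grik and SST, 4 each) and are used below for a comparison of their own. They entered the same model fit, and with the 20 cortical libraries alone 5963 features were called between the classes, 5691 of them among the calls reported here. The labels do not explain the names, which in this field stand for Cre driver lines in which ribosomes of the marked cells are tagged and pulled down with their RNA. A population is therefore what a driver marks, and a driver can mark a mixture of cell types. The sources used here give no age, sex, tag or number of animals per library. P-values from libraries then measure the spread between libraries, which may be technical in part.

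Glutamatergic neurons of the cortex excite their targets, and CamK and Scnn mark pyramidal cells broadly and cells of the middle layers. GABAergic interneurons inhibit: PV cells mostly act on cell bodies, SST cells on dendrites, and VIP cells mainly on other interneurons. The 2 classes arise from different germinal zones of the embryonic forebrain, and they are usually told apart by genes for making and packaging their transmitters. The deposited features carry identifiers that the file does not pair with gene names, and the reference tables matched 0 of the identifiers. The class identities could therefore not be checked on marker genes, and features are printed by identifier, 2 in each direction. Likewise, RNA from glia, vessels or neurons of the other class could not be measured. In ribosome pull-downs of this kind, fewer cells of a type and less RNA per cell cannot be told apart.

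Deposited counts summed to between 100158438 and 110280017 in the 20 cortical libraries. Spearman correlations across features were 0.974 to 0.987 between libraries of 1 population and 0.911 to 0.961 between populations. Class was not the leading axis among these libraries. The first principal component of log2 CPM (CPM, the count of a feature scaled to the library size; 30.8% of the variance) ran from VIP at -118.1 ± 4.86 (SD, n = 4) over PV (-44.3 ± 18.7), SST (-1.93 ± 12.2) and Scnn (18.9 ± 24.3) to CamK (145.4 ± 8.06). GABAergic libraries reached up to 9.04 on it and Scnn libraries down to -9.57, so the classes overlapped. The second component (25.9%) put PV (104.3 ± 19) and SST (82.8 ± 10) above the other populations. On that component VIP (-77.9 ± 9.58) and Scnn (-85.8 ± 12.9) lay side by side, although they belong to different classes.

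**Figure D1:**
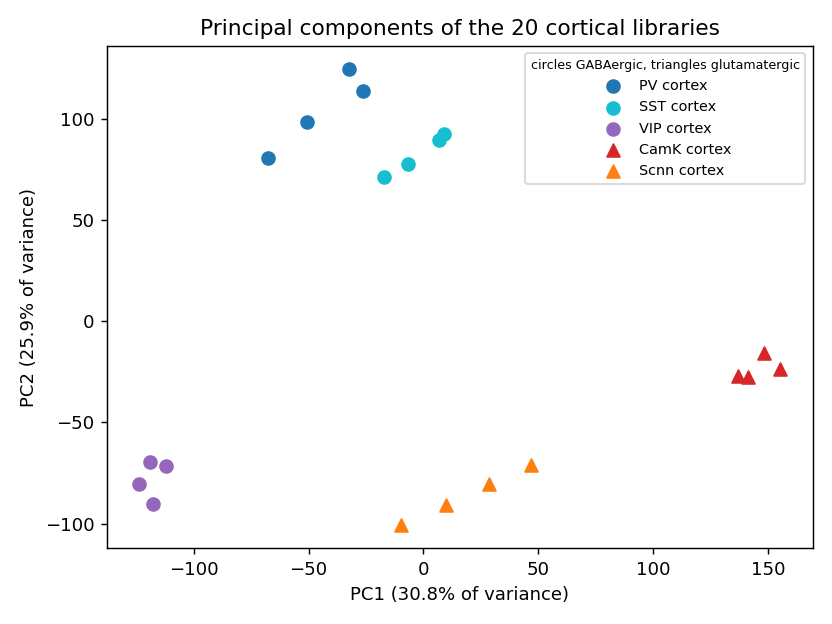
Principal components of the 20 cortical libraries, each point 1 library, with circles for GABAergic and triangles for glutamatergic populations. On the horizontal axis (PC1, 30.8% of the variance) SST reaches 9.04 and Scnn -9.57, so that no vertical line separates the classes; on the vertical axis (PC2, 25.9%) VIP and Scnn overlap.

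Across 24555 features that passed a filter on low counts, 5968 (24.3%) differed between the mean of the 3 GABAergic and the mean of the 2 glutamatergic populations. These calls need an adjusted p under 0.05 in edgeR's quasi-likelihood test and a change of at least 2-fold. The GABAergic side was higher in 3188 (13%) and lower in 2780 (11.3%), and the median log2 fold change over all tested features was 0.07. With library totals in place of composition scaling the split was 3836 higher and 2380 lower (61.7% higher, against 53.4%). Which side held more calls depended on the populations. Without VIP, the only cortical population with a W in its titles, there were 5937 calls, with 43.2% on the GABAergic side. Without CamK the share was 46.5% of 4873 features. It was 60% without PV, 59.3% without SST and 57.7% without Scnn. Of the 5968 features, 4688 were still called without VIP and 3813 without CamK.

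The test above treats libraries as replicates, so it speaks of these 5 populations. When the counts of each population were summed, so that populations were the replicates of a class, edgeR called 0 of 24555 features at an adjusted p under 0.05 and 2-fold. At an unadjusted p under 0.05 there were 3638 (14.8%). This fit has 3 residual degrees of freedom. Its common biological coefficient of variation was 0.636 over the populations of a class, against 0.253 over the libraries of a population. With libraries as replicates, DESeq2 called 6095 features, 56.2% of them higher in GABAergic neurons.

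The populations of 1 class differed widely among themselves. An F test of equal levels in PV, SST and VIP passed for 16621 features (67.7%), and Scnn differed from CamK in 10234 (41.7%), both at an adjusted p under 0.05 in edgeR and with no fold threshold. The class contrast at the same threshold gave 14424 features (58.7%). These tests differ in the number of libraries and of groups compared. Their counts therefore do not rank differences within a class against those between classes. Over all tested features the highest and lowest of the 3 GABAergic means lay a median of 0.81 log2 units apart, on a log2(CPM + 0.1) scale. In the features called higher this spread was 1.40, and in those called lower 1.02. Scnn and CamK lay a median of 0.38 apart over all features and 0.61 and 0.57 apart in the features called higher and lower.

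How many populations stood behind a call differed between the directions. In 1885 of the 3188 features called higher (59.1%), all 3 GABAergic means lay above both glutamatergic means, an order that 15.5% of all tested features had. In 2115 of the 2780 features called lower (76.1%), all 3 lay below both, which held for 18.3% of all tested features. These orders are partly fixed by the call itself and are given as a description. Another 627 features called higher had only 1 GABAergic population above both glutamatergic ones, and in 585 of these (93.3%) it was VIP. Of 588 features called lower with only 2 populations below both, VIP was the population left out in 409 (69.6%).

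On the side where a called feature was low, VIP and Scnn often had more signal than the other populations of their class. Among features called lower in GABAergic neurons, VIP had the highest GABAergic mean in 61.2% and PV in 12.8%, while over all tested features these shares were 44.6% and 29.5%. Among features called higher, Scnn was above CamK in 66.8%, against 49% of all tested features. These shares were closer to all tested features where every library of 1 class lay above every library of the other. There VIP had the highest GABAergic mean in 48.1% of features with glutamatergic libraries on top. Scnn was above CamK in 52.1% of those with GABAergic libraries on top. The call and the condition on every library both bear on these orders, which are given as a description. Whether RNA of other cells adds to this low-side signal was not tested, because the features have no names. VIP is also the only cortical population with a W in its titles, so that its values here cannot be told apart from those of the title series. VIP libraries also held more features at 1 CPM or more, 15065 to 15483, than Scnn (14290 to 14808) and the other 3 populations (13793 to 14156).

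Each GABAergic population was next set against each glutamatergic one. These 6 comparisons share libraries, so their counts are values side by side. VIP against CamK gave 8701 calls (35.4% of the tested features) and PV against CamK 8488 (34.6%). PV against Scnn gave 7075 (28.8%), SST against Scnn 6459 (26.3%) and SST against CamK 6011 (24.5%). VIP against Scnn gave 4433 (18.1%), with the smallest median absolute log2 fold change of the 6 (0.57, against 0.88 for PV and CamK).

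The direction of the calls differed as much as their number. Against CamK, VIP had 5911 features higher (24.1% of those tested) and 2790 lower (11.4%), and 3331 of the higher ones were at least 8-fold higher while 292 of the lower ones were at least 8-fold lower. PV had 4367 higher (17.8%) and 4121 lower (16.8%) against CamK. SST had 3201 higher (13%) and 2810 lower (11.4%) against CamK. Against Scnn the larger side turned for PV, with 2944 higher (12%) and 4131 lower (16.8%). It also turned for SST, with 2619 higher (10.7%) and 3840 lower (15.6%). VIP again had more features higher, 2576 (10.5%), than lower, 1857 (7.56%). Where the mean over the cortical libraries was 1 CPM or more, the excess in VIP was small, with 2108 higher and 1981 lower against CamK and 1485 higher and 1381 lower against Scnn. At that level PV had fewer features higher than lower against CamK too, 2258 and 2668, so its larger side did not turn between CamK and Scnn. SST had 1769 higher and 1760 lower against CamK. With no fold threshold the share of higher features was 50.6% for VIP against CamK and 47.7% for VIP against Scnn, where the larger side turned, and 49.3% for PV against CamK. Without composition scaling the share of higher features rose from 67.9% to 80.4% for VIP against CamK and from 58.1% to 73% for VIP against Scnn.

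**Figure D2:**
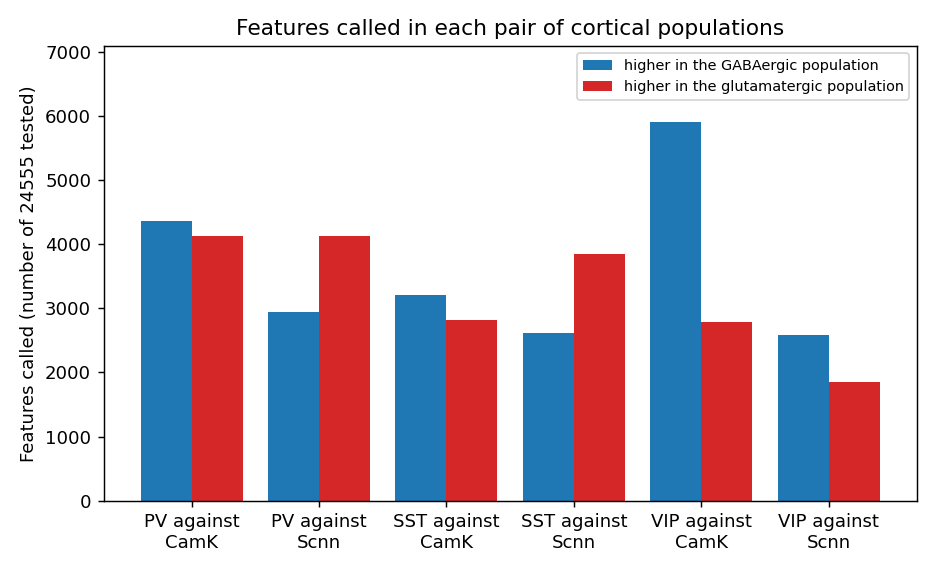
Number of features called in each of the 6 pairs of a GABAergic and a glutamatergic cortical population, with 1 bar for features higher on either side. VIP against CamK has the tallest bar (5911 higher in VIP), and VIP against Scnn the fewest calls in all (4433).

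The features that separated the classes in every library were fewer than the calls. In 1072 features (4.37% of those tested) the lowest of the 12 GABAergic libraries lay above the highest of the 8 glutamatergic ones, and in 1766 (7.19%) all glutamatergic libraries lay above all GABAergic ones. These counts come from TMM-scaled CPM and need no fitted model. Their order depended on the scaling: with library totals alone they were 1717 and 1242. That scaling also moved the median log2 fold change of all tested features from 0.07 to 0.21. With median-of-ratios size factors the counts were 1236 and 1713.

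Features with this complete separation had a smaller spread within a class than the calls, which the condition on every library itself favours. They were also more abundant, with median log2 CPM of 3.42 (GABAergic on top) and 4.63 (glutamatergic on top), against -0.24 and 0.92 for the features called higher and lower. All 3 GABAergic means lay within 2-fold of each other in 64.5% of those with GABAergic libraries on top and in 69.8% of those with glutamatergic libraries on top, against 60.1% of all tested features and 33.5% and 48.9% of the features called higher and lower. Most gaps were small, with a median distance between the nearest libraries of the classes of 0.33 log2 units in both sets. A gap of at least 1 log2 unit was found for 166 of the 1072 features with GABAergic and 279 of the 1766 with glutamatergic libraries on top. Wide gaps lay more often on the GABAergic side, since 62 and 41 features had a gap of at least 2 units, and the widest were 4.38 and 2.98.

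The 2 features named in each direction are those with the widest gap among called features at 5 CPM or more on average in every population of the higher class. They were chosen in these same libraries, so their cortical fold changes and p-values are extreme by that choice. GSMG0024189, with a deposited length of 616 bases, stood at 18.2, 19.1, 18.7 and 17.1 CPM in the PV libraries, at 15, 14.4, 14.1 and 14.5 in SST and at 11.4, 13.5, 10.2 and 12.1 in VIP. In CamK it was at 0.0914, 0.083, 0.168 and 0.0899 CPM and in Scnn at 0.385, 0.245, 0.233 and 0.395. The lowest GABAergic library, a VIP one, was thus far above the highest glutamatergic one, and PV, SST and VIP libraries did not overlap each other. The class log2 fold change was 6.30 (SE 0.25, edgeR adjusted p = 1.74e-19), and with populations as replicates it was 6.08 (SE 0.67, adjusted p = 0.0788).

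GSMG0006498, with a length of 536 bases, was at 119, 97.4, 113 and 111 CPM in PV, 126, 130, 117 and 104 in SST and 145, 134, 108 and 135 in VIP. In CamK the values were 1.73, 2.97, 1.98 and 1.7 CPM and in Scnn 3.91, 4.92, 2.98 and 2.72. Here the 3 interneuron populations overlapped, so the feature was close to even across them. The log2 fold change was 5.44 (SE 0.16, edgeR adjusted p = 3.56e-22), and in the 6 pairs of populations it lay between 4.92 and 5.96. With populations as replicates it was 5.36 (SE 0.38, adjusted p = 0.0788 in edgeR).

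On the glutamatergic side, GSMG0002673 (831 bases) was at 54.2, 42.8, 36.3 and 35.3 CPM in CamK and at 80, 62.8, 71.6 and 70.9 in Scnn. It was at 1.59, 1.17, 1.2 and 1.71 CPM in PV, 3.26, 3.88, 4.42 and 4.37 in SST and 2.55, 4.59, 4.31 and 4.36 in VIP. Scnn libraries were all above CamK libraries, and PV libraries below all others. The log2 fold change was -4.28 (SE 0.13, edgeR adjusted p = 6.25e-23), ranging over the 6 pairs from -5.65 for PV against Scnn to -3.40 for SST against CamK. With populations as replicates it was -4.22 (SE 0.56, adjusted p = 0.0788 in edgeR).

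GSMG0043799 (1440 bases) was at 191, 180, 164 and 175 CPM in CamK and at 143, 137, 157 and 167 in Scnn. In PV it was at 6.44, 4.61, 4.82 and 6.78 CPM, in SST at 4.13, 3.44, 4.2 and 3.78 and in VIP at 8.86, 13, 19 and 10.4. All VIP libraries were above all PV and SST libraries. VIP had the highest GABAergic mean in 61.2% of the features called lower and in 44.6% of all tested features. Among features completely separated with glutamatergic libraries on top, as this one is, the share was 48.1%. The log2 fold change of GSMG0043799 was -4.64 (SE 0.10, edgeR adjusted p = 3.82e-26), and for VIP alone it was -3.79 against CamK and -3.56 against Scnn. With populations as replicates the class value was -4.47 (SE 0.58, adjusted p = 0.0788 in edgeR).

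**Figure D3:**
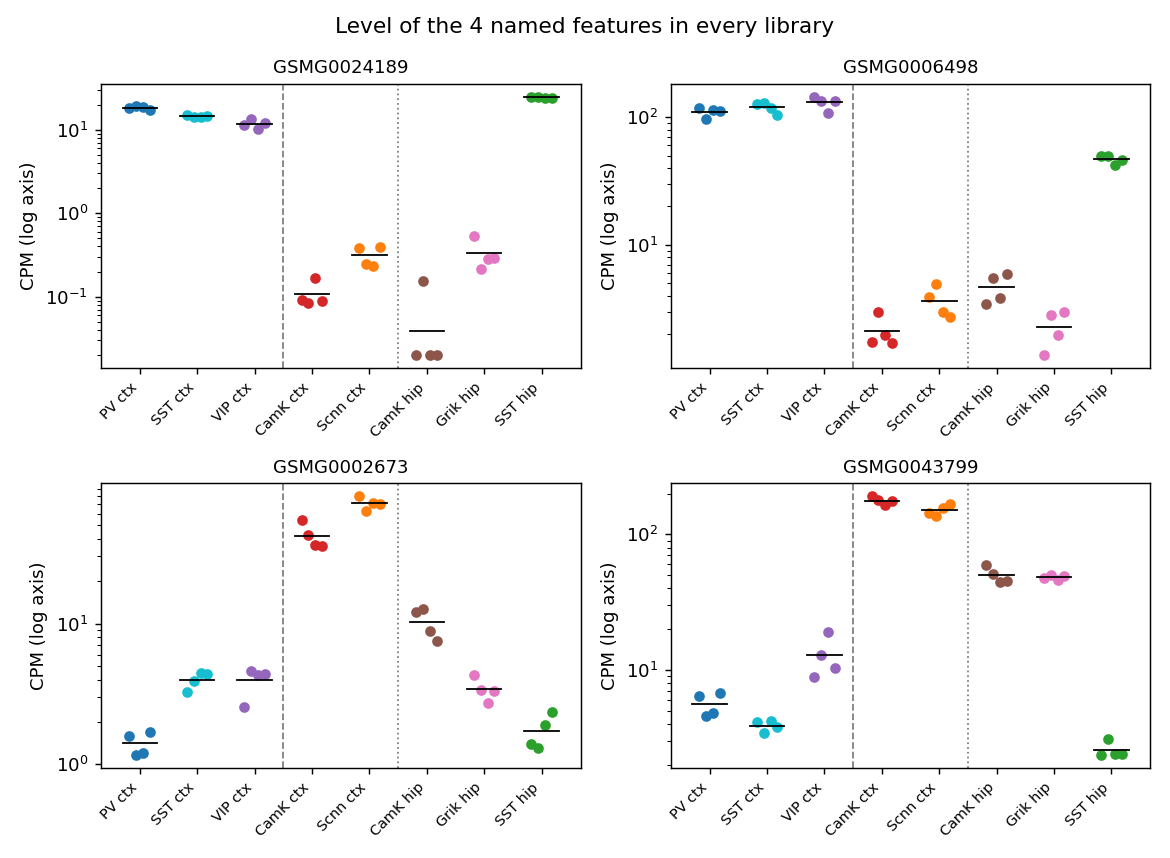
CPM of the 4 named features in all 32 libraries on log axes, 1 point per library and a line at the mean of each group of 4; libraries at 0 are drawn at 0.02. The dashed line parts GABAergic (left) from glutamatergic cortical populations and the dotted line parts cortex from hippocampus; GSMG0024189 lies between 10.2 and 19.1 CPM in the 12 GABAergic cortical libraries and at most at 0.395 in the 8 glutamatergic ones.

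At a cut-off of 1 CPM, few features were present in all populations of 1 class and in none of the other. Counting a feature as present in a population at a mean of 1 CPM or more, 12560 of the tested features (51.2%) were present in all 5 cortical populations and 8033 (32.7%) in none. Those present in PV, SST and VIP but neither glutamatergic population numbered 179 (0.729%), and 167 of these were called higher. Those present in CamK and Scnn but no interneuron population numbered 209 (0.851%), and 190 of these were called lower. More features were present in VIP alone, 596 (2.43%), or in VIP and Scnn alone, 397 (1.62%), than in all populations of either class alone.

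A stricter rule asked for 1 CPM or more in each library of a class and less than that in each library of the other. Of the 24555 tested features, it left 59 on the GABAergic and 54 on the glutamatergic side. With less than 0.1 CPM in each library of the other class, 1 and 0 were left. Among the features present in all 5 populations, 859 were called higher and 1123 lower. Among the 8033 with a mean under 1 CPM in every population, 1136 were called higher and 834 lower. A mean under 1 CPM thus did not exclude a class difference.

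Calls shifted from the GABAergic to the glutamatergic side with the abundance of the feature. Among the 6238 features with a mean of 0.1 to 1 CPM over the cortical libraries, 19.8% were called higher and 13.4% lower in GABAergic neurons. Features with a mean under 1 CPM held 1631 of the 3188 calls higher and 1167 of the 2780 calls lower. Among the 2108 features at 100 CPM or more, 5.41% were called higher and 12.1% lower, with 114 features higher and 256 lower (30.8% higher). This share was 32.1% with median-of-ratios size factors and 39.4% with library totals alone, so the excess on the glutamatergic side among abundant features held under all 3 scalings. A feature found in several populations passes a cut on the mean more easily than one found in a few.

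**Figure D4:**
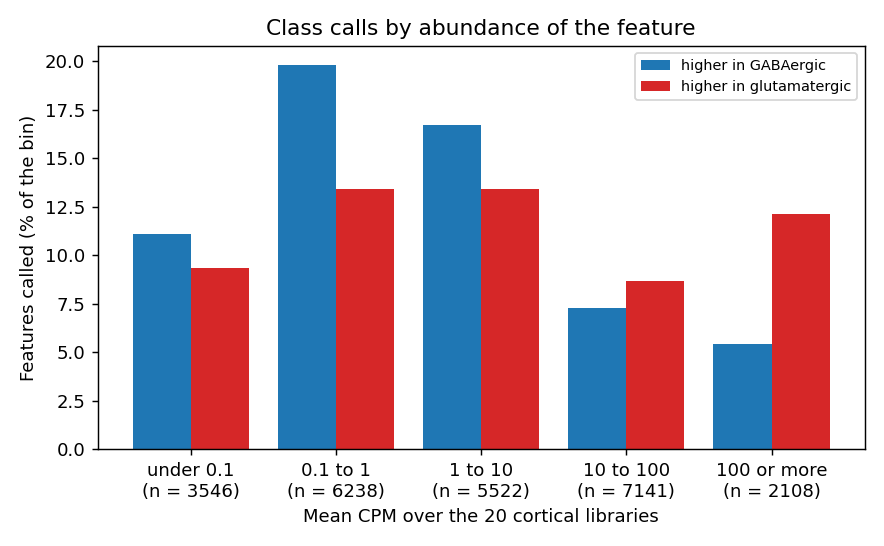
Share of the tested features called higher in GABAergic or in glutamatergic populations, as a percentage of each bin of mean CPM over the 20 cortical libraries, with the number of features under each bin. The bars for GABAergic neurons are taller in the bins under 10 CPM, and at 100 CPM or more 5.41% are higher and 12.1% lower in GABAergic neurons.

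The same shift appears in the share of reads. The 2780 features called lower took 17.8% to 18.3% of all counts in CamK and 15.8% to 18.7% in Scnn libraries, where they are high. They still took 4.52% to 4.92% in PV, 6.45% to 6.70% in SST and 7.17% to 8.53% in VIP. The 3188 features called higher took 7.97% to 9.59% of counts in the GABAergic libraries and 2.03% to 2.47% in the glutamatergic ones. These shares describe the features that the contrast picked and carry no test.

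The share of calls varied little with the length of the feature. The median deposited length was 1750 bases for features called higher, 1728.5 for those called lower and 1639 for all tested. Of the features of up to 954 bases 20.9% were called, and of those of 2708 bases or more 26%, with 52.8% and 53.1% of the calls higher. The mean length weighted by counts was shorter in GABAergic libraries, 2529 bases against 2625, a difference of -95.8 bases. An exact permutation test of the 12 against 8 libraries gave a two-sided p of 0.00248, adjusted over 3 measures to 0.00743. This test shuffles libraries, although the 4 of a population are not independent draws from a class. With populations as units only 10 splits exist, and no p under 0.1 could be reached. Without Scnn the difference was -96.8 with an adjusted p of 0.0742. By population the means were 2472 ± 89.5 (SD, n = 4) in PV, 2542 ± 64.4 in SST, 2572 ± 28.2 in VIP, 2626 ± 32.9 in CamK and 2624 ± 28 in Scnn. The order was not the same in the hippocampus, where SST stood at 2542 ± 52.1 bases, CamK at 2504 ± 37.5 and Grik at 2528 ± 40.5.

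The other measures per library, tested in the same way, did not pass. GABAergic libraries had on average 199.6 more features at 1 CPM or more (exact permutation test, two-sided p = 0.414, adjusted p = 0.414), and without VIP the difference turned to -199 (adjusted p = 0.19). The 100 most abundant features took 22.4% of counts in GABAergic and 23.7% in glutamatergic libraries (p = 0.267, adjusted p = 0.4, exact permutation test). That difference turned to 1.04 percentage points without Scnn (adjusted p = 0.143). Scnn replicate 2, with 31.2%, had the highest such share.

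The hippocampal libraries pose the same comparison in separate samples, with SST on the GABAergic side and CamK and Grik on the glutamatergic side. SST and CamK occur in both regions, so the populations are shared although the libraries are not. In this contrast 6645 features (27.1%) were called, 4157 (16.9%) higher and 2488 (10.1%) lower in SST. Of the 1072 features with complete separation on the GABAergic side in the cortex, 602 (56.2%) were called higher in hippocampal SST neurons and 5 (0.466%) lower. Of the 1766 separated on the glutamatergic side, 801 (45.4%) were called lower and 36 (2.04%) higher.

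Whole libraries separated as well. All 4 hippocampal SST libraries lay above all 8 CamK and Grik libraries in 776 (72.4%) of the 1072 features, against 15.1% of all tested features. They lay below in 1129 (63.9%) of the 1766, against 14.6% of all tested. The shared features made up 21% and 31.5% of the 3697 and 3582 features so separated in the hippocampus. The 2 cortical sets were more abundant than all tested features (median log2 CPM 3.42 and 4.63, against 1.525). In cortex, complete separation was rare under 0.1 CPM (0.197% and 0.338% of features). All tested features are therefore not a background matched for abundance. The median hippocampal log2 fold change was 1.16 and -0.91 in the 2 sets, and 0.09 over all tested features. The share of counts from the features called higher in cortex was 7.49% to 7.78% in hippocampal SST libraries and 2.32% to 2.73% in CamK and Grik libraries. For the features called lower in cortex it was 5.85% to 6.12% and 14.8% to 16.1%.

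**Figure D5:**
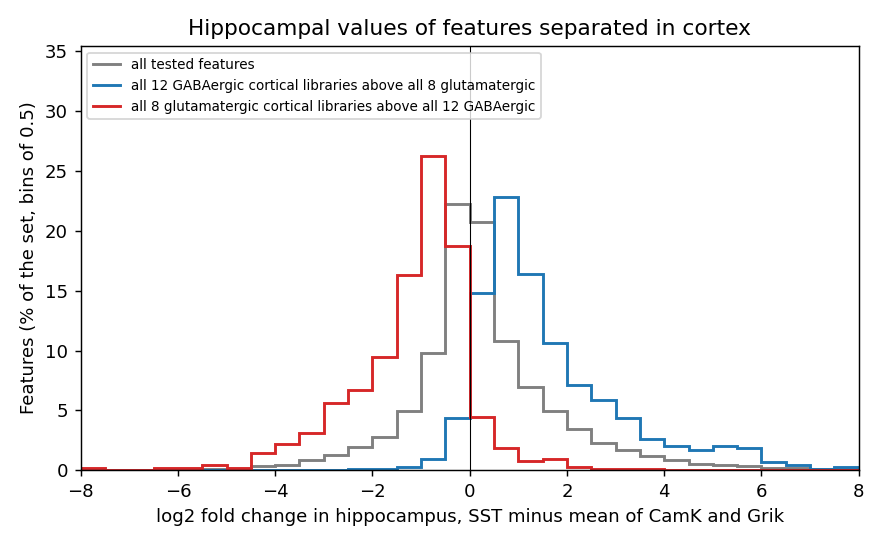
Distribution of the hippocampal log2 fold change (SST minus the mean of CamK and Grik, bins of 0.5, as a percentage of each set) for all tested features and for the 2 sets with complete separation in the cortex. The set with GABAergic libraries on top has a median of 1.16 and the set with glutamatergic libraries on top a median of -0.91.

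All 4 named features kept their direction in the hippocampus. GSMG0024189 was at 25, 25, 23.7 and 24 CPM in hippocampal SST, above every cortical library, and at most at 0.539 CPM in the Grik libraries. It was at 0 in 3 CamK libraries and at 0.154 CPM in the other. GSMG0006498 was lower in hippocampal SST (49.6, 49.7, 42 and 46.4 CPM) than in any cortical interneuron library, and its class log2 fold change there was 3.85 (SE 0.17, edgeR adjusted p = 5.33e-18). GSMG0043799 was at 2.37, 3.09, 2.4 and 2.4 CPM in SST, and between 44.5 and 59.8 CPM in CamK and Grik, for a log2 fold change of -4.27 (SE 0.17, adjusted p = 6.31e-20).

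GSMG0002673 differed least between the classes of the hippocampus, at -1.78 (SE 0.19, edgeR adjusted p = 1.19e-09). It was at 1.39, 1.3, 1.89 and 2.35 CPM in SST and at 4.31, 3.4, 2.72 and 3.34 in Grik. In CamK hippocampus it was at 12, 12.7, 8.88 and 7.47 CPM, below every cortical CamK library. The difference between SST and CamK was itself compared between the regions. It was larger in cortex by 2.50 log2 units for GSMG0006498 (SE 0.28, edgeR adjusted p = 1.05e-07). For GSMG0043799 the value was -1.22 (SE 0.22, adjusted p = 9.92e-05), that is a wider gap in cortex. For GSMG0002673 it was -0.84 (SE 0.28, adjusted p = 0.0266), and leaving out any of 7 libraries raised the adjusted p to between 0.0523 and 0.1. These were SST cortex replicates 1 and 2, CamK cortex replicate 1, CamK hippocampus replicates 4 and 5, and SST hippocampus replicates 3 and 5. For GSMG0024189 it was -2.22 (SE 0.67, edgeR adjusted p = 0.0146), here a narrower gap in cortex. SST exceeded CamK by 7.05 log2 units in cortex and 9.27 in hippocampus, and the regional difference rests on very few CamK counts. Without CamK cortex replicate 3 it was -1.90 (adjusted p = 0.0652), and without CamK hippocampus replicate 3, which leaves that group at 0, the fitted value was -7.30. The named features were chosen for wide gaps between libraries that include cortical SST and CamK, which favours a wider difference in cortex. Over all tested features, 5694 (23.2%) had a difference between SST and CamK that itself differed between the regions. Hippocampal titles carry a W and those of cortical SST and CamK do not, and for these differences the region cannot be told apart from the series of titles.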

How the data were processed

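The authors deposited expected counts, that is estimated and often fractional read counts, for 56459 features. Of the whole deposited counts up to 20, 93.8% were even, so each mate of a pair may have been counted, and a fragment would then add 2. Per the submitters' processing notes the build was GRCm38, and featureCounts, SAMtools, Picard and FastQC were used without a stated role or version. The sources used here do not give the aligner, annotation, counting mode or use of strand, so overlapping, antisense and near-identical features are uncertain. Another 12 columns match no sample of these labels and were not used. The feature length is taken from the deposited table, which does not say what it covers. Lists of marker genes set for named features could not be looked up.

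Counts were rounded, filtered with filterByExpr (24555 features, 43.5%, were kept) and scaled by TMM in edgeR 4.0.16 under R 4.3.3. All 32 libraries entered 1 robust quasi-likelihood fit with a coefficient for each group (24 residual degrees of freedom), with Benjamini-Hochberg adjustment over all tested features. DESeq2 1.42.0 was an alternative. A standard error is the log2 fold change over the square root of F. Named features were the 2 in each direction with the widest gap between the libraries of both classes on the log2(CPM + 0.1) scale, among called features at a mean of 5 CPM or more in every population of the higher class. Members, lists and rules were chosen with earlier results of these data known. For principal components, log2 CPM were computed after adding a prior count of 2. On simulated counts for this contrast (22410 features), the test at an adjusted p under 0.05 recovered 38 of 67 features at a 1.5-fold change, 67 of 67 at 2-fold and 66 of 66 at 4-fold. It also passed 6 of 22210 features simulated without change. The simulation drew changed features only from those above 1 CPM on average. It gave all features the same spread and had no difference between populations of a class. These rates therefore do not describe changes in features of lower abundance or the spread between populations.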

Additional observations from a re-analysis of the deposited data

Results flagged for a closer look

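The levels per library were checked for a library far from the other 3 of its group in 52 groups of values, and 6 were found. The check divides the distance to the nearest library by the range of the group. Chance gives about 1 in 20 for normally distributed values, a rate that need not hold for values near 0. The 100 most abundant features took 22.1% of counts in PV replicate 3 and 23.9% to 24% in the other PV libraries, and 20.8% in SST cortex replicate 1 against 21.6% to 21.7% in the others. GSMG0024189 was at 0.168 CPM in CamK cortex replicate 3 against 0.083 to 0.0914 in the others, and at 0.154 CPM in CamK hippocampus replicate 3 against 0 in the others. GSMG0002673 was at 2.55 CPM in VIP replicate 1 against 4.31 to 4.59 CPM. GSMG0043799 was at 3.09 CPM in SST hippocampus replicate 2 against 2.37 to 2.4 CPM.

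The difference between SST and CamK was compared between cortex and hippocampus for the 4 named features, as an interaction in edgeR. All 4 passed an adjusted p under 0.05 with every library in. GSMG0002673 lost this call when any of 7 libraries was left out, and GSMG0024189 without CamK cortex replicate 3. The features were picked for wide gaps in cortex, which favours a wider difference there. Cortex minus hippocampus was -2.22 for GSMG0024189, 2.50 for GSMG0006498, -0.84 for GSMG0002673 and -1.22 for GSMG0043799 on the log2 scale. The gap between SST and CamK was thus narrower in cortex for GSMG0024189 and wider there for the others. Region is confounded with the W in the titles.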

How the results depend on the processing

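Of 514 alternative values, 480 kept their direction and side of the threshold or stayed within 1.5 times the reported count. Many of the 514 leave out 1 library and share most data with the reported fit, and 8 of the 34 changes were among these. A count can also stay within 1.5 times while its larger side turns. The share of class calls higher in GABAergic neurons went from 53.4% to 43.2% without VIP and 46.5% without CamK. With populations as replicates 0 features were called, 0 higher and 0 lower, and all 4 named features had an adjusted p of 0.0788. With no fold threshold 14424 features differed between the cortical classes (7244 higher, 7180 lower) and 13210 in the hippocampus, and the 6 pairs gave 14496 (PV, CamK), 13024 (PV, Scnn), 11810 (SST, CamK), 12569 (SST, Scnn), 15351 (VIP, CamK) and 10427 (VIP, Scnn). The tests within a class have no fold threshold to drop. Requiring 1 CPM in 4 or more libraries left 4014 features called between the cortical classes, 3943 of them among the 5968 reported. In GABAergic neurons 2108 of the 4014 were higher and 1906 lower, and VIP against CamK gave 5179 calls. Complete separation with GABAergic libraries on top held for 1717 features with library totals only, 2283 without VIP and 2230 without Scnn, and with glutamatergic libraries on top for 3580 without Scnn. Without VIP the difference in features at 1 CPM or more turned to -199. Without Scnn the share of the 100 most abundant features turned to 1.04 and the weighted length of -96.8 bases lost its call. Leaving out each cortical library in turn gave 5795 to 6251 calls between the classes. The regional difference ranged from -0.92 to -0.63 for GSMG0002673 and from -7.30 to -1.79 for GSMG0024189 when libraries were left out. The alternatives for the regional difference were added after the data were seen.

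The labels do not say that equal replicate numbers mark a shared origin. Deviations of same-numbered libraries from their group means correlated at -0.05 to 0.12 over 24 pairs of the plainly numbered titles, 4 of them over 0.1, with a median of 0.03. Over the 72 pairs of these titles with other numbers the median was -0.01, and 0 were over 0.1. Of 16 same-numbered pairs with VIP, 0 were over 0.1. VIP replicate 3 and Scnn replicate 2, with unequal numbers, correlated at 0.12. Of 16 libraries, 9 correlated best with a library of their own number. Deviations within a group sum to 0, so the values for equal and for other numbers are not independent. Whether equal numbers share an origin was not tested. Since not every pair was over 0.1, the numbers were not taken as pairs. This rule is strict, and missing it does not show that the libraries are unpaired. A replicate block over the 20 cortical libraries gave 5913 calls, and among the plainly numbered titles 5737, against 5760 for the same libraries with no block, a comparison added after the data were seen. Depth was similar in all cortical libraries and limits mainly features under 0.1 CPM, about 10 deposited counts per library. With counts halved, should both mates have been counted, 5573 features were called.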
